A study of Mus musculus with 6 samples.

Results

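The nuclear-encoded subunits of respiratory complexes III, IV and V were followed in mouse heart 14 days after myocardial infarction. Members were the protein-coding genes whose symbol begins with Uqcr, Cox4, Cox5, Cox6, Cox7, Cox8 or Atp5, together with Cyc1, with at least 60 counts summed over the 6 libraries. There were 41 of them among 38293 genes in the table, 9 of complex III, 15 of complex IV and 17 of complex V, and all 41 passed the filter on low counts used for testing. Of 44 protein-coding rows with these symbols, 3 fell under the minimum: Cox6b2 with 53 counts, Cox7b2 with 6 and Cox8c with 0. The member nearest the minimum from above was Atp5g2, with 62 counts. The prefix also takes in Cox7a2l, a factor that joins complexes III and IV, and Atp5s, which is not a core subunit of the ATP synthase.

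The 6 libraries came from 3 control mice (WT in the labels, Zeb2 fl/fl in the study's methods) and 3 Zeb2 cKO mice, all of the backcrossed C57BL/6J strain, infarcted at 8 to 10 weeks of age. The Zeb2 cKO mice carry floxed Zeb2 and a Cre recombinase driven by the Myh6 (alpha-myosin heavy chain) promoter, which acts in cardiomyocytes and leaves Zeb2 intact in the other cells of the heart. The methods describe the controls as Zeb2 fl/fl and name no Cre in them, so loss of Zeb2 and presence of Cre cannot be told apart. All 6 hearts had a permanent occlusion of the left anterior descending artery, and no unoperated or sham library was among these samples. The labels place the tissue in the border region of the infarct, and the methods name the remote zone. Total RNA depleted of ribosomal RNA was sequenced, and 1 library per mouse was available.

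Complex III passes electrons from ubiquinol to cytochrome c, complex IV (cytochrome c oxidase) passes them on to oxygen, and both pump protons out of the mitochondrial matrix. Complex V, the ATP synthase, lets the protons back in and uses their flow to turn a rotor that drives ATP synthesis. A few subunits are encoded in mitochondrial DNA and the remaining ones in the nucleus. Heart muscle depends on this system for contraction, and for some complex IV subunits it uses muscle isoforms in place of the form found in most tissues.

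Total counts were 37288174 to 51136331 per library, of which 14301225 to 19024394 lay outside mitochondrial DNA. The members took 1.43% to 2.43% of these nuclear counts, 1.94 ± 0.439% in WT and 2.23 ± 0.262% in Zeb2 cKO (mean ± SD, n = 3 each). WT 2 stood apart from the other 5 libraries before any comparison of genotypes. The summed CPM (read counts scaled to TMM-adjusted library size) of 12 cardiomyocyte markers was 36715 in WT 2 and 59499 to 72958 in the others, that of 10 fibroblast markers was 11854 against 2029 to 2950, and that of 10 macrophage markers was 841 against 210 to 292. The sum of 10 endothelial markers was 489 in WT 2 against 588 to 709, and that of 10 pericyte and smooth muscle markers 708 against 951 to 1071. No cardiomyocyte, fibroblast or macrophage marker was at 0 throughout. Because WT 2 stood apart, log2 fold changes are given with and without it. Zeb2 itself was at 61.3, 116 and 71.9 CPM in WT and 59.6, 72.6 and 66.5 in Zeb2 cKO, so the groups overlapped. Values in single libraries are given throughout in the order of replicates 1, 2 and 3, and gene positions are on GRCm38 from GENCODE M21. In bulk tissue, fewer cardiomyocytes and less RNA per cardiomyocyte cannot be told apart.

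On average over the 6 hearts the members with the highest levels per merged exon length were the catalytic subunits of the ATP synthase and, in complex IV, muscle isoforms closely followed by Cox6b1. Levels between genes were compared as TPM, that is counts per base of merged exons scaled to the same total over all genes outside mitochondrial DNA. Atp5a1, the alpha subunit of the catalytic F1 head, was at 3826 ± 1707 TPM in WT and 4747 ± 676 in Zeb2 cKO (mean ± SD, n = 3 each, as below). Atp5b, the beta subunit that holds the catalytic sites, was at 2842 ± 1137 TPM in WT and 3467 ± 503 in Zeb2 cKO. In complex IV, Cox8b, Cox7a1 and Cox6a2 led with means over the 6 libraries of 3341, 3326 and 3091 TPM. Cox6b1, a form found in most tissues, was at 3063 TPM, and in Zeb2 cKO its mean lay above that of Cox6a2 (3235 against 3055 TPM). The ranges of these 4 genes overlapped, so their order was not resolved. In complex III the highest was Uqcr11, a small subunit, at 1475 ± 493 TPM in WT and 1599 ± 102 in Zeb2 cKO, and the lowest was Uqcrq, another small subunit, at 247 ± 79.4 TPM in WT and 247 ± 9.27 in Zeb2 cKO.

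The order at the top depended on the length used. Per base of the longest transcript matched to RefSeq, Atp5b (5071 TPM) lay above Atp5a1 (3951 TPM), in complex IV Cox4i1 (3332 TPM) lay above Cox7a1 (3295 TPM), Cox6b1 (2557 TPM) and Cox6c (2487 TPM), which were in turn above Cox8b (2434 TPM) and Cox6a2 (2252 TPM), and in complex III Uqcrh, the hinge protein, led with 2178 TPM against 1611 for Uqcr11. The same genes were at the low end under both lengths. Cox7c was the lowest of complex IV (12.5 TPM per merged exon length, 19.0 per RefSeq length). Atp5l and Atp5g2 were the lowest of complex V, at 1.07 and 1.31 TPM per merged exon length. Per RefSeq length their order was reversed, with Atp5l at 9.27 and Atp5g2 at 2.19 TPM. Atp5l was at 0.903, 0.456 and 0.625 CPM in WT and 0.699, 0.668 and 0.931 CPM in Zeb2 cKO. These 3 genes have near-identical copies elsewhere in the genome, described below for Cox7c and Atp5l, so their levels are uncertain.

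**Figure D1:**
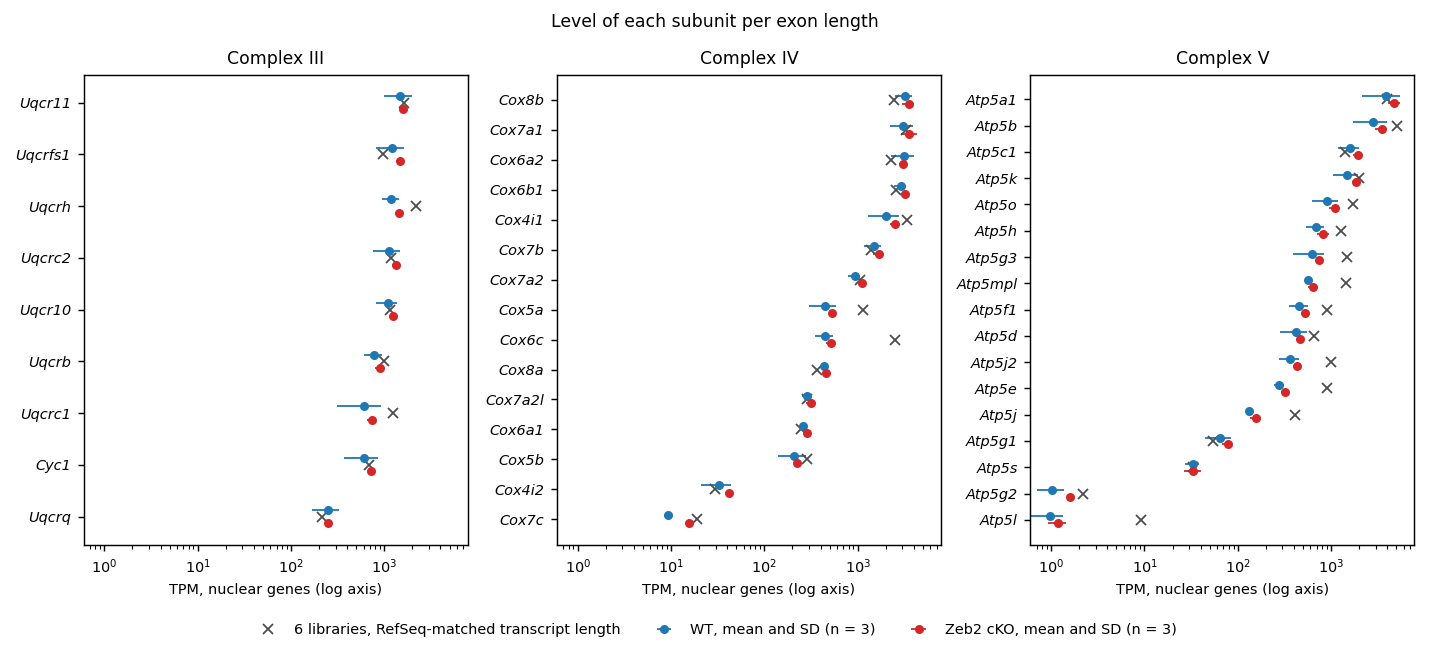
Level of each of the 41 members in TPM over nuclear genes (horizontal log axis), for WT (blue) and Zeb2 cKO (red) as mean with SD over 3 libraries, with crosses for the mean over 6 libraries when the RefSeq-matched transcript length is used. Atp5a1 and Atp5b lie at the top of complex V and Cox8b, Cox7a1, Cox6a2 and Cox6b1 at the top of complex IV per merged exon length, while Cox7c, Atp5g2 and Atp5l lie far below their complexes.

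Subunits 6a, 7a and 8 of complex IV each come in a muscle isoform and a form found in most tissues, and the muscle isoform was the larger part in every heart. Per merged exon length, the share of Cox6a2 (chromosome 7, 128205435 to 128206387) in the sum of Cox6a2 and Cox6a1 (chromosome 5, 115345642 to 115348981) was 93.4, 90.0 and 92.7% in WT and 91.5, 92.5 and 90.0% in Zeb2 cKO. The share of Cox8b (chromosome 7, 140898945 to 140900446) in Cox8b plus Cox8a (chromosome 19, 7215153 to 7217616) was 89.0, 85.5 and 88.8% in WT and 89.1, 89.4 and 86.6% in Zeb2 cKO. The share of Cox7a1 (chromosome 7, 30184144 to 30186078) in Cox7a1 plus Cox7a2 (chromosome 9, 79755361 to 79759878) was 78.4, 73.4 and 77.4% in WT and 76.9, 78.0 and 73.7% in Zeb2 cKO. The muscle share was thus lowest for subunit 7a, and in all 3 pairs WT 2 and Zeb2 cKO 3 had the lowest share of their groups.

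Subunit 4 was the opposite case. Cox4i1, the form of most tissues, is the gene used by the heart, and Cox4i2, best known from lung, was the small part of the pair. Its share was 1.64, 1.63 and 1.49% in WT and 1.43, 1.65 and 1.95% in Zeb2 cKO. Cox4i2 was at 3.37, 1.75 and 2.99 CPM in WT and 3.12, 3.595 and 3.37 CPM in Zeb2 cKO. Cox4i1 was at 399, 208 and 389.8 CPM in WT and 422, 422 and 334 CPM in Zeb2 cKO. Both were lowest in WT 2, and the other WT libraries lay among or near the Zeb2 cKO values. Unlike the 3 muscle pairs, this ratio was not lower in WT 2, where it lay 0.066 above the mean of WT 1 and WT 3 on the log2 scale. The testis-type isoforms of subunits 6b and 7b, Cox6b2 and Cox7b2, were under the count minimum and Cox8c had no count in any library.

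The 4 isoform ratios did not separate the genotypes. The ratio is taken within a library and gene length cancels in the difference, so neither normalization nor length enters. On the log2 scale Zeb2 cKO minus WT was -0.14 (95% interval -0.80 to 0.52, exact permutation test, two-sided p = 0.5) for Cox6a2 to Cox6a1 and -0.016 (95% interval -0.45 to 0.42, exact permutation test, two-sided p = 0.8) for Cox7a1 to Cox7a2. It was 0.076 (95% interval -0.46 to 0.61, exact permutation test, two-sided p = 0.5) for Cox8b to Cox8a and 0.071 (95% interval -0.31 to 0.46, exact permutation test, two-sided p = 0.7) for Cox4i2 to Cox4i1. All 4 pairs overlapped between genotypes, the adjusted p over the 4 pairs was 0.8 for each, and 3 against 3 libraries cannot give a p under 0.1. The intervals reach from -0.80 on the log2 scale for subunit 6a up to 0.61 for subunit 8, so differences of that size are not excluded. Without WT 2 the differences were -0.33, -0.13, -0.074 and 0.093 in the same order, so that of the Cox8b pair changed sign. The groups of the Cox6a2 pair then no longer overlapped (exact permutation test, p = 0.2, the smallest that 2 against 3 libraries can give). Overlap was also lost, with the same p from that test, in the Cox8b pair without Zeb2 cKO 3 (difference 0.20). The Cox4i2 pair without Zeb2 cKO 1 (difference 0.18) lost it too, again with that p.

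**Figure D2:**
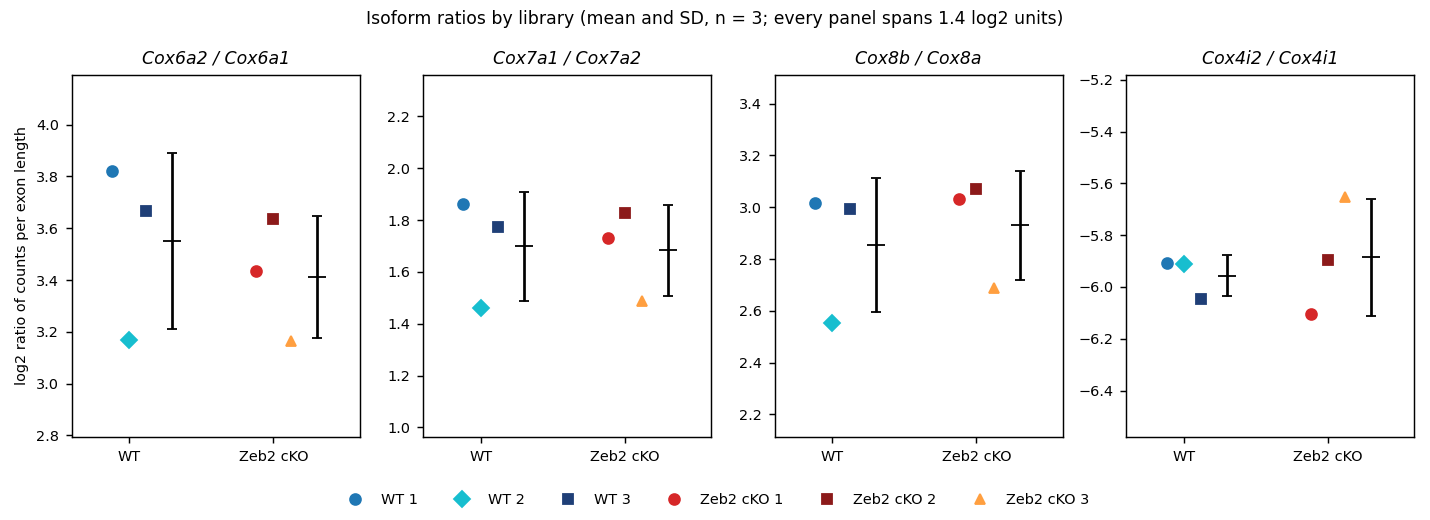
Log2 ratio of counts per merged exon length (vertical axis; each panel has its own centre and the same span) for 4 isoform pairs of complex IV, 1 point per library, with mean and SD of each genotype beside the points (n = 3). The genotypes overlap in every panel, and WT 2 and Zeb2 cKO 3 are the lowest of their groups in the Cox6a2, Cox7a1 and Cox8b panels.

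In subunits 6a and 8 the form of most tissues varied little between libraries while the muscle form varied more. Cox8a was at 28.7, 29.0 and 28.4 CPM in WT and 29.6, 29.0 and 27.0 CPM in Zeb2 cKO. Its partner Cox8b was at 135, 99.0 and 131 CPM in WT and 141, 142 and 101 CPM in Zeb2 cKO. For Cox8a WT 2 lay within the range of the other libraries, whereas for Cox8b it was the lowest of all 6. Cox6a1 was at 19.8, 19.9 and 18.9 CPM in WT and 20.6, 19.2 and 21.2 CPM in Zeb2 cKO. Its partner Cox6a2 was at 271, 173 and 232 CPM in WT and 216, 231 and 184 CPM in Zeb2 cKO. Again WT 2 lay within the range for the common form and below all others for the muscle form. In subunit 7a, Cox7a2 was at 97.4, 82.1 and 100.3 CPM in WT and 115, 109 and 92.2 CPM in Zeb2 cKO. Cox7a1 was at 201, 128 and 194 CPM in WT and 217, 220.3 and 147 CPM in Zeb2 cKO. Both of these were lowest in WT 2, Cox7a1 by the larger step. The low muscle share in WT 2 thus came with the low cardiomyocyte and high fibroblast and macrophage markers of that library. Its endothelial markers and its pericyte and smooth muscle markers were low as well. The part of cell makeup in the low share was not tested.

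The promoters of the pairs of subunits 7a and 8 differ in their content of CpG dinucleotides. Only for these pairs were both isoforms in the promoter table. The 120 bases before each start site (RefSeq, GRCm38.p6) are given 5′ to 3′ on the gene's strand with CpG dinucleotides in capitals. Cox7a1 is at chr7:30184051-30184170 on the + strand, Cox7a2 at chr9:79759854-79759973 on the - strand, Cox8b at chr7:140900447-140900566 on the - strand and Cox8a at chr19:7217617-7217736 on the - strand.
Cox7a1 (muscle): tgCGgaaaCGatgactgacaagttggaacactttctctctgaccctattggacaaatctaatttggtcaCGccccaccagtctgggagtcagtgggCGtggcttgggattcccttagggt
Cox7a2 (most tissues): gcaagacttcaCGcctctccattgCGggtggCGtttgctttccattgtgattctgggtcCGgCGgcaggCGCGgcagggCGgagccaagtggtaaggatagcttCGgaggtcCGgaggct
Cox8b (muscle): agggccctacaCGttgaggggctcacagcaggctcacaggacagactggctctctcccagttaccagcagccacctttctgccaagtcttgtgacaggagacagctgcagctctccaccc
Cox8a (most tissues): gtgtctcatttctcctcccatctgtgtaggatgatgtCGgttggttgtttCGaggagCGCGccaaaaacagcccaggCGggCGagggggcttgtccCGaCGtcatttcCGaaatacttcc
These stretches hold 4 CpG in Cox7a1 and 10 in Cox7a2, and 1 in Cox8b and 9 in Cox8a. Over the whole 300 bases of the table (250 before to 50 after the start) the counts were 7 and 20 for subunit 7a, and 2 and 19 for subunit 8. Cox6a1, the common form of subunit 6a, had 32, but its partner Cox6a2 had no promoter to compare.

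Promoters were matched for 31 of the 41 members, with 34 entries. Their median CpG count was 19 against 7 over all 32851 promoters of the table, and their median GC content 56.2% against 52.7%. Motifs were searched as exact letters on both strands, with overlapping hits allowed. The NRF1 core GCGCATG, bound by a regulator of respiratory genes, was in 20.6% of the members' promoters and 3.91% of all, and CCGGAAG, a site of ETS factors such as GABP, in 29.4% and 8.86%. The motif AAGGTCA of estrogen-related receptors was in 11.8% and 4.72%, AGATGGC (YY1) in 8.82% and 6.40%, and GGGCGG (SP1) in 29.4% and 35.7%. TATAAA was in 5.88% and 13.6%, among the members only in Cox8b and Atp5l, and CTAAAAA (MEF2-like) in 2.94% and 3.50%. The E-box CACCTG, which ZEB factors bind, was in 20.6% of the members' promoters and 20.2% of all. These shares describe letters and not bound sites.

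No member passed the genome-wide threshold between genotypes. With edgeR's quasi-likelihood test 0 of 41 members, and 0 (0%) of the 14746 genes tested, had a Benjamini-Hochberg adjusted p under 0.05; 280 genes had an unadjusted p under 0.05, and DESeq2 called 2 genes, neither of them a member. At an unadjusted p under 0.05 edgeR had 1 member higher in Zeb2 cKO (background 1.04%) and 0 lower (background 0.861%). The members leaned upward: the median log2 fold change was 0.17 against -0.0069 for all genes tested, 37 of 41 were above 0, 16 were over 0.2 (background 15.9%) and 0 were under -0.2 (background 22.6%). The groups did not overlap for 2 members that were higher in Zeb2 cKO, Cox7c and Atp5g2 (background 3.39%), and for 0 that were lower (background 2.97%). Atp5g2 passed the minimum of 60 with 62 counts, more of them in Zeb2 cKO, so its place among the members rested on the group in which it was higher. Markers of cell types that make up the heart were compared in the same way. The 12 cardiomyocyte markers had a median log2 fold change of 0.17 with 12 above 0. The 10 fibroblast markers had one of -1.08 with 0 above 0, and the 10 macrophage markers one of -0.86 with 0 above 0. The 10 endothelial markers had one of 0.14 with 6 above 0. The 10 pericyte and smooth muscle markers had one of 0.14 with 8 above 0.

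The upward lean was not present when WT 2 was left out. Without WT 2 the median of the members was 0.0034 against 0.0025 over 14966 genes, 21 of 41 were above 0, 2 were over 0.2 (background 14.2%) and 2 under -0.2 (background 11.7%). The medians of the cardiomyocyte, fibroblast and macrophage markers were then -0.083, 0.0084 and 0.049. Those of the endothelial and of the pericyte and smooth muscle markers were -0.0061 and 0.067. The part of cell makeup in the values of the members was not tested. Without WT 2, 17 members went from above 0 to below 0 and 1, Cox8a, the other way. The 2 over 0.2 were Cox7c and Atp5g2, and the 2 under -0.2 were Uqcrq at -0.28 and Cox6a2 at -0.26. At an unadjusted p under 0.05 there was 1 member higher, Cox7c (background 1.55%), and 1 lower, Uqcrq (background 1.08%), and none had an adjusted p under 0.05 (edgeR). Without that library 2 members did not overlap upward (background 8.31%) and 5 downward (background 7.22%): Uqcr11, Uqcrq, Cox5b, Cox6a2 and Atp5d.

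**Figure D3:**
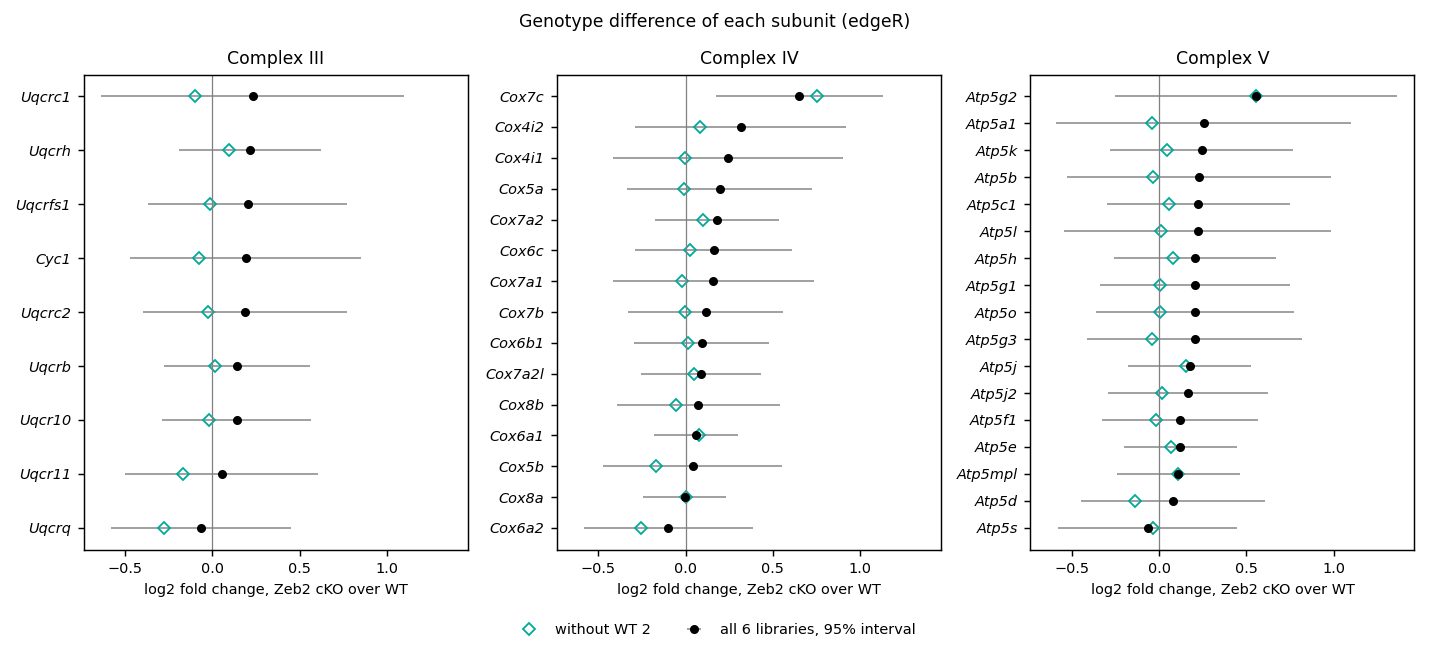
Log2 fold change of Zeb2 cKO over WT for the 41 members by complex, black points with 95% intervals for all 6 libraries and open diamonds for the fit without WT 2. The black points lie mostly above 0, with a median of 0.17, and the diamonds lie around 0, with a median of 0.0034; the interval of Cox7c is the one that does not include 0.

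The CPM of WT 2 were below the mean log2 CPM of WT 1 and WT 3 in 36 of 41 members, by a median of 0.55 on the log2 scale, and by more than 0.5 in 23 of them. Over all genes tested the same difference had a median of -0.0040. Of these 14746 genes, 7407 were below, and 2899 by more than 0.5. The largest gap was in Uqcrc1 (chromosome 9, 108936633 to 108949623), a core protein of complex III, which was at 359, 129 and 309 CPM in WT and 324, 347 and 266 CPM in Zeb2 cKO. Atp5a1 was at 1659, 680.4 and 1454 CPM in WT and 1636, 1669 and 1224 CPM in Zeb2 cKO. WT 2 was the lowest of the 6 libraries in both. WT 1 and WT 3 lay among the Zeb2 cKO values, except that WT 1 was the highest of all for Uqcrc1.

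The gap of WT 2 was not the same for all members. It was -1.37 on the log2 scale for Uqcrc1, -1.19 for Atp5a1 and -1.03 for Cyc1, but -0.063 for Atp5j, -0.013 for Atp5mpl and 0.022 for Cox8a. Across the members it was larger the longer the transcript, with a Spearman correlation to RefSeq-matched length of -0.41 over 41 members and of -0.65 over the 25 members with no near-identical stretch elsewhere; these points share the same 3 libraries. Zeb2 cKO 3 was also below the mean of the other 2 libraries of its group, in 34 of 41 members with a median of -0.29. Over all genes tested it was below in 7362 of 14746. Across the members its gaps ran unlike those of WT 2 (Spearman -0.018 over 41 members). What set these gaps was not tested.

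**Figure D4:**
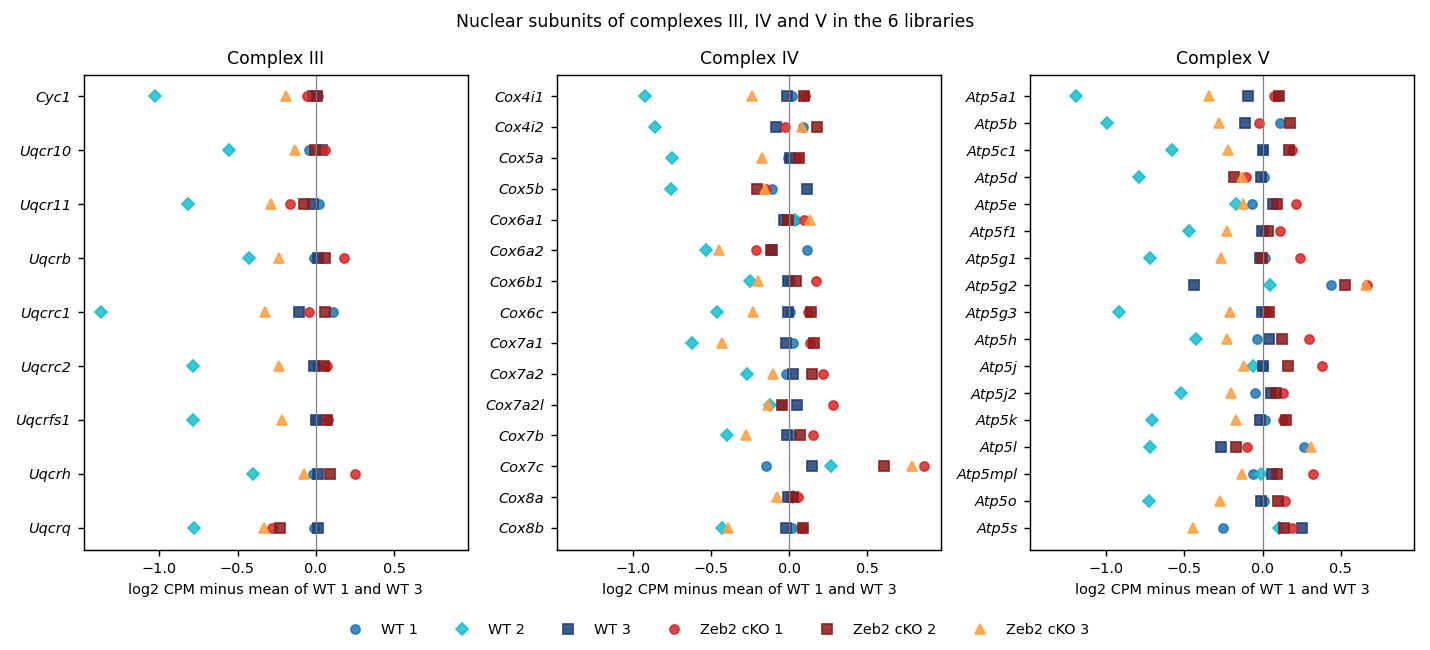
Log2 CPM of each member in the 6 libraries minus the mean of WT 1 and WT 3 (horizontal axis), by complex. WT 2 (cyan diamonds) lies to the left in 36 of 41 members, most for Uqcrc1 and Atp5a1 and not for Cox6a1, Cox7c, Cox8a, Atp5g2 or Atp5s, and Zeb2 cKO 3 (orange triangles) lies left of the mean of the other Zeb2 cKO libraries in 34.

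In complex III the median log2 fold change over the 9 members was 0.19, and -0.028 without WT 2. Cyc1 and Uqcrfs1, the cytochrome c1 and the Rieske iron-sulfur protein that carry the electrons, had log2 fold changes of 0.19 (SE 0.28, 95% interval -0.47 to 0.85) and 0.20 (SE 0.24, 95% interval -0.37 to 0.77), and of -0.074 and -0.011 without WT 2. Uqcrc1 and Uqcrc2, the core proteins, were at 0.23 and 0.19, and at -0.10 and -0.028 without WT 2. Uqcrh, among the 5 members with the smallest unadjusted p, was at 169, 129 and 173 CPM in WT and 203, 182 and 162 CPM in Zeb2 cKO. The groups overlapped, with WT 2 lowest and Zeb2 cKO 1 highest. The log2 fold change was 0.22 (SE 0.17, 95% interval -0.19 to 0.63), with an unadjusted p of 0.252 and an adjusted p of 0.957 from edgeR, and 0.10 without WT 2. The other small subunits Uqcr10 and Uqcrb were at 0.14 and 0.14, and at -0.020 and 0.013 without WT 2.

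Uqcrq (chromosome 11, 53427922 to 53430831) was the member furthest below 0 once WT 2 was set aside. It was at 55.2, 32.4 and 56.0 CPM in WT and 45.8, 47.5 and 44.1 CPM in Zeb2 cKO. WT 1 and WT 3 lay above all 3 Zeb2 cKO libraries and WT 2 lay below them. The log2 fold change was -0.064 (SE 0.22, 95% interval -0.58 to 0.45) with all libraries and -0.28 without WT 2 (edgeR, unadjusted p = 0.0154, adjusted p = 1.00). For Uqcr11 too WT 1 and WT 3 lay above all 3 Zeb2 cKO libraries and WT 2 below them, at 118, 66.4 and 115 CPM in WT and 104, 111 and 95.9 CPM in Zeb2 cKO, with 0.053 and -0.17 for the 2 fits.

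In complex IV the median over the 15 members was 0.11, and 0.0034 without WT 2. The 8 genes of the isoform pairs ran from -0.10 for Cox6a2 to 0.31 for Cox4i2, and the widest of their intervals was that of Cox4i1, 0.24 (SE 0.28, 95% interval -0.42 to 0.90). Without WT 2 Cox4i1 was at -0.0035, Cox7a1 at -0.019 against 0.16 with all libraries, and Cox8b at -0.055 against 0.072. Cox4i2 and Cox7a2 were among the 5 members with the smallest unadjusted p, with overlapping groups. The log2 fold change of Cox4i2 was 0.31 (SE 0.26, 95% interval -0.29 to 0.92) and its unadjusted p was 0.259 from edgeR, and without WT 2 the log2 fold change was 0.080. That of Cox7a2 was 0.18 (SE 0.15, 95% interval -0.18 to 0.53), with an unadjusted p of 0.272 from edgeR, and 0.10 without WT 2. The narrowest intervals of all members were those of Cox8a, -0.0068 (SE 0.10, 95% interval -0.24 to 0.23), and Cox6a1, 0.058 (SE 0.10, 95% interval -0.18 to 0.30). Without WT 2 these were 0.0034 and 0.075. Cox5a and Cox5b, which sit on the matrix side, were at 0.19 and 0.040, and at -0.012 and -0.17 without WT 2. With all libraries none of these had groups without overlap. Cox6b1, Cox6c and Cox7b were at 0.091, 0.16 and 0.11, and Cox7a2l at 0.085. Without WT 2 these 4 were at 0.015, 0.024, -0.0037 and 0.047.

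Cox7c (chromosome 13, 86044816 to 86046904), a small membrane subunit of complex IV, was the member with the largest log2 fold change and the smallest p. Its row held 0.956, 1.28 and 1.17 CPM in WT and 1.92, 1.61 and 1.82 CPM in Zeb2 cKO. All 3 Zeb2 cKO libraries were above all 3 WT libraries, and WT 2 was the highest of its group rather than the lowest. The log2 fold change was 0.65 (SE 0.20, 95% interval 0.17 to 1.13), with an unadjusted p of 0.0148 and an adjusted p of 0.957 from edgeR, and an exact permutation test gave p = 0.1, the smallest that 3 against 3 libraries can give. Without WT 2 the log2 fold change was 0.75. The row held only 401 counts in all 6 libraries (36, 56 and 45 in WT and 96, 70 and 98 in Zeb2 cKO).

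The coding sequence of Cox7c, 192 bases on chromosome 13 (GRCm38, 86045753 to 86046675, - strand, in the exons of GENCODE M21), has copies elsewhere, and it is printed because the count of this gene turns on them.
Cox7c: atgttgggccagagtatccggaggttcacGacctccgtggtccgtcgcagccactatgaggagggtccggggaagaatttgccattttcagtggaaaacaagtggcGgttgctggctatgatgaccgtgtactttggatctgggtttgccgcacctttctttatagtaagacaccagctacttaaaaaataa
The processed pseudogene Gm12338 (chromosome 11, 75599763 to 75599954, - strand) is identical to it over all 192 bases. The pseudogene Gm10012 (chromosome 17) differs at the 2 bases in capitals, G30C and G107A, counted from 1 at the start codon with the base of Cox7c first. Reads were 75 bases long, so a read inside this sequence does not tell Cox7c from Gm12338. The table placed 6042 counts on Gm12338 and 3 on Gm10012, so only 6.22% of the counts on these 3 rows stood on Cox7c.

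Summed with its pseudogene rows, Cox7c no longer stood out. It was then at 26.0, 18.1 and 24.8 CPM in WT and 27.8, 26.4 and 21.9 CPM in Zeb2 cKO. WT 2 became the lowest library, the groups overlapped, and the log2 fold change was 0.14 with an unadjusted p of 0.436 from edgeR, and 0.0010 without WT 2. The difference on the Cox7c row therefore holds for the reads that the authors' pipeline placed there and not for the sum.

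Short and strongly expressed genes often have processed pseudogenes, and many members did. Of the 41 members, 16 shared a stretch of at least 75 bases and 95% identity with another gene and 25 shared none. By this rule 15 had a pseudogene copy with a row in the table. The pseudogenes Uqcrh-ps1 (220 to 394 counts per library) and Uqcrh-ps2 (108 to 236) were not among these copies. The share of counts on the member itself was 10.02% for Atp5l (192 counts against 1724 on 5 pseudogenes), 26.9% for Atp5g1 (9658 against 26247 on Gm10039), 58.5% for Uqcrb and 59.97% for Atp5h, and 74.1% to 99.9% for the other 10. For Cox7a2l the share ranged from 61.8% to 86.3% between libraries, the widest range. With copies added, the median of the 41 members was 0.16, 0 had an unadjusted p under 0.05, 14 were over 0.2, and only Atp5g2 had groups without overlap. Of all 14746 genes in that fit, 279 had an unadjusted p under 0.05, 2349 were over 0.2 and 499 were higher without overlap. The log2 fold change of Atp5l moved from 0.22 to -0.0043 and that of Cox7a2l from 0.085 to -0.047. With copies added and WT 2 left out, the median was -0.0074, Uqcrq was the 1 member with an unadjusted p under 0.05 in edgeR (log2 fold change -0.28), Atp5l was at -0.079 and Cox7a2l at -0.12. Over the 25 members with no such stretch the median was 0.17, and -0.019 without WT 2.

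**Figure D5:**
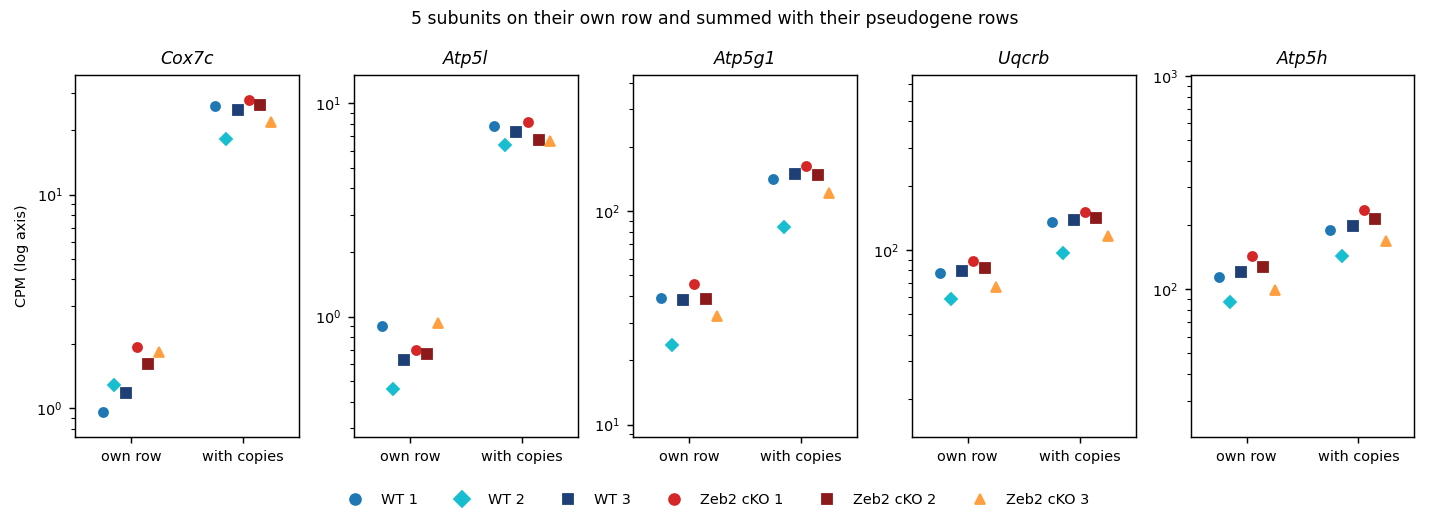
CPM (log axis, each panel over the same number of decades) of 5 members on their own row and summed with their pseudogene rows, 1 point per library. On its own row Cox7c lies between 0.956 and 1.92 CPM with the Zeb2 cKO libraries on top, while the sum lies between 18.1 and 27.8 CPM with the genotypes overlapping.

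In complex V the median over the 17 members was 0.21, and 0.013 without WT 2. Of the F1 head, Atp5a1 and Atp5b had log2 fold changes of 0.26 (SE 0.36, 95% interval -0.59 to 1.10) and 0.23 (SE 0.32, 95% interval -0.53 to 0.99), and of -0.041 and -0.033 without WT 2. Atp5c1, Atp5d and Atp5e, the gamma, delta and epsilon subunits of the central stalk, were at 0.22, 0.077 and 0.12, and at 0.059, -0.14 and 0.067 without WT 2. The peripheral stalk genes Atp5f1, Atp5h, Atp5j and Atp5o were between 0.12 and 0.21, and between -0.018 (Atp5f1) and 0.16 (Atp5j) without WT 2. Atp5k, Atp5j2, Atp5mpl and Atp5l, small subunits of the membrane part, were at 0.24, 0.17, 0.11 and 0.22, and Atp5s was at -0.065. Without WT 2 these 5 were at 0.047, 0.015, 0.11, 0.013 and -0.035.

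The c-ring, the rotor turned by the protons, is built from 3 genes that encode the same mature protein. Per merged exon length Atp5g3 supplied 89.3% to 90.9% of the 3 in each library, Atp5g1 8.84% to 10.5% and Atp5g2 0.0912% to 0.236%. The size of the Atp5g1 part depended on the length and on its pseudogene Gm10039, which held 26247 counts against 9658 on Atp5g1. Per RefSeq-matched length Atp5g1 supplied 3.24% to 3.89%, and per merged exon length with pseudogene counts added 26.9% to 29.5%. Atp5g3 supplied 96.0% to 96.6% and 70.3% to 73.0% in the same cases, so the order of the 3 held in all 6 libraries each time. The log2 fold changes of Atp5g1 and Atp5g3 were 0.21 and 0.20, and 0.0064 and -0.040 without WT 2.

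Atp5g2 (chromosome 15, 102662864 to 102672352) was the other member whose groups did not overlap. It had counts of 9, 8 and 5 in WT and 14, 11 and 15 in Zeb2 cKO, or 0.239, 0.182 and 0.130 CPM in WT and 0.280, 0.254 and 0.279 CPM in Zeb2 cKO. The Zeb2 cKO libraries were all above the WT libraries, by a log2 fold change of 0.56 (SE 0.34, 95% interval -0.25 to 1.36) with an unadjusted p of 0.142 and an adjusted p of 0.957 from edgeR. An exact permutation test gave p = 0.1, and the log2 fold change without WT 2 was 0.55. With so few counts a difference of this size was not resolved from counting error and the spread between mice.

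Assembly factors, which help to build the complexes, and the subunits of complex I were read beside the members. Of 36 assembly factors, 0 had an unadjusted p under 0.05, 5 were over 0.2 (background 15.9%) and 2 under -0.2 (background 22.6%), 2 were lower without overlap (background 2.97%), and the median log2 fold change was 0.11. Without WT 2 the median was -0.021, 2 were over 0.2 (background 14.2%), 4 under -0.2 (background 11.7%), and 5 were lower without overlap (background 7.22%). Of these, 2 had an unadjusted p under 0.05 (background 1.08%) and are named for that, after their values were seen. They were Taco1, an activator of mt-Co1 translation, at -0.29 without WT 2 against -0.040 with all libraries (edgeR, unadjusted p = 0.0368 without WT 2), and Atpif1, the inhibitor of the ATP synthase, at -0.26 against -0.16 (edgeR, unadjusted p = 0.0384 without WT 2). Uqcc2 and Cox16, assembly factors of complexes III and IV, were lower in all Zeb2 cKO libraries than in all WT libraries, by small amounts: Cox16 was at 1.19, 1.23 and 1.25 CPM in WT and 1.08, 0.853 and 1.10 in Zeb2 cKO, a log2 fold change of -0.28 (SE 0.21, unadjusted p = 0.220 from edgeR), and Uqcc2 had a log2 fold change of -0.096 (SE 0.10). Without WT 2 these were -0.27 and -0.068. The 36 nuclear subunits of complex I had a median of 0.16, with 10 over 0.2 and 0 under -0.2, and of 0.0026 without WT 2, with 0 past 0.2 in either direction. Cycs, the cytochrome c that connects complexes III and IV, was at 0.17 and Ndufa4, now counted with complex IV, at 0.16, and at 0.055 and -0.0041 without WT 2.

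With all libraries the 3 smallest unadjusted p among the genes of these lists belonged to Higd1a, Coa7 and Yy1. Higd1a, a small inner membrane protein tied to complex IV, was at 12.7, 10.4 and 13.1 CPM in WT and 19.1, 13.7 and 12.7 in Zeb2 cKO, a log2 fold change of 0.33 (SE 0.19, unadjusted p = 0.1245 from edgeR). Coa7, an assembly factor of complex IV, had a log2 fold change of 0.37 (SE 0.22) and the transcription factor Yy1 one of -0.24 (SE 0.15). All 3 overlapped between genotypes, and without WT 2 they were at 0.24, 0.20 and -0.096. The 11 regulators of mitochondrial gene expression, among them Ppargc1a, Esrra, Nrf1 and Gabpa, ran from -0.24 for Yy1 to 0.23 for Ppargc1b with a median of 0.028. Without WT 2 all 11 were below 0 with a median of -0.11. In that fit 7616 of all 14966 genes were above 0, and 0 of the 11 had an unadjusted p under 0.05 in edgeR.

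Of the mitochondrially encoded partners, mt-Cytb of complex III was at 8110 ± 771 CPM in WT and 7415 ± 696 in Zeb2 cKO, a log2 fold change of -0.13 (SE 0.27), and mt-Co1 of complex IV at 23762 ± 4957 and 23485 ± 2802 (mean ± SD, n = 3 each), differing by -0.017 on the log2 scale (SE 0.37). Without WT 2 the log2 fold changes were -0.20 for mt-Cytb, whose groups then did not overlap, and -0.18 for mt-Co1, with unadjusted p of 0.233 and 0.362 from edgeR. The rows of mt-Co2, mt-Co3, mt-Atp6 and mt-Atp8 held 3, 5, 0 and 0 counts in all 6 libraries together, beside 6263110 counts on mt-Co1. These 4 genes could therefore not be set beside the nuclear subunits, and why their rows are near 0 was not tested.

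Markers of other tissues were read beside these values, and each summed level was nearly that of 1 gene. The summed CPM of 10 skeletal muscle markers was 9.64 to 20.3 in WT and 20.4 to 38.7 in Zeb2 cKO. Of this, Mybpc2, a fast skeletal muscle myosin binding protein, made up 8.45 to 19.4 CPM in WT and 19.4 to 36.95 CPM in Zeb2 cKO. Its log2 fold change was 0.94 (SE 0.36) with groups that did not overlap, and 0.66 without WT 2. Tnni2, a fast skeletal troponin I, also did not overlap, at 0.159, 0.273 and 0.156 CPM in WT and 0.3797, 0.323 and 0.335 CPM in Zeb2 cKO, a log2 fold change of 0.80 (SE 0.34) and of 1.12 without WT 2. Tnnt3 was at 0.14, and at 0.36 without WT 2. With all libraries 7 of the 10 markers were too low to be tested, and 2 of the 3 tested did not overlap (background 3.39%). Without WT 2, 5 markers were tested and all 5 were above 0, from 0.36 to 2.12 with a median of 0.87. Of these, 3 had an unadjusted p under 0.05 in edgeR (background 1.55%) and 3 did not overlap (background 8.31%). The sum of 10 adipocyte markers was 130.2 to 187 CPM in WT and 174 to 229.5 CPM in Zeb2 cKO. Of this, Fabp4, which endothelial cells also express, made up 125 to 176 CPM in WT and 159 to 215 CPM in Zeb2 cKO. Cidea and Cfd were at log2 fold changes of 0.51 and 1.28 with overlapping groups, and 0.29 and 0.97 without WT 2. The other 7 adipocyte markers were too low to be tested with all libraries. Without WT 2, 4 were tested and all 4 were above 0, up to 2.11 with a median of 0.63. Of these, 1 had an unadjusted p under 0.05 in edgeR (background 1.55%) and 1 did not overlap (background 8.31%). Skeletal muscle and brown fat also use Cox6a2, Cox7a1 and Cox8b, and the part of such tissue in the values of these isoforms was not tested. With all libraries Cox6a2, Cox7a1 and Cox8b overlapped between genotypes.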

How the data were processed

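The values are raw counts per gene, deposited by the authors as 1 table. Per the labels, RNA was prepared with a stranded total RNA kit with ribosomal depletion, and per the methods single-end reads of 75 bases were aligned with STAR using GENCODE annotation (GRCm38/mm10). The treatment of reads with several matches is not given in the sources used here. The labels name DESeq 1.2.

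Groups come from the labels, and each library is 1 mouse. Symbols, exon lengths and transcripts are from GENCODE M21, and 36345 of 38293 identifiers had a symbol. Counts were tested with edgeR 4.0.16 in R 4.3.3 (TMM, filterByExpr, quasi-likelihood test, prior count 0.125, genotype as the only term, Benjamini-Hochberg over 14746 genes), fitted on the whole table. In simulated data for this comparison, 14844 genes tested, calls were made for 53 of 100 genes given a log2 change of 1, for 99 of 100 given a change of 2 and for 4 of 14644 left unchanged. No change between 0 and 1 was simulated. The largest log2 fold change of a member was 0.65, so the simulation does not give the power for changes of the members' size. Isoform ratios were compared with exact permutation tests (scipy 1.17.1). Near-identical stretches were found with BLAST 2.17.0 between the RefSeq-matched transcript of each member and transcripts of other genes, in place of the longest transcript planned. Alternatives were RLE scaling, DESeq2 1.42.0, no filter, a replicate block, mitochondrially encoded genes left out, and each library left out; summing with copies, RefSeq lengths, and lists without WT 2 were added after seeing the data.

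Members, gene lists, motifs and tests were chosen with earlier results of these data known. Values in every library are given for the isoform pairs, the extremes of level per merged exon length in each complex and the 5 smallest p. They are also given for members without overlap with all libraries. Uqcrc1 and the others were chosen after their values were seen. No 2 libraries agreed within sampling noise. Equal replicate numbers did not pair libraries: deviations of same-numbered libraries correlated at 0.10, -0.16 and -0.14.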

Additional observations from a re-analysis of the deposited data

How the results depend on the processing

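Under RLE scaling, DESeq2, the replicate block and leaving out mitochondrially encoded genes, the counts by p and by fold change and the median kept their direction and side of the threshold. So did the counts without overlap under RLE scaling and without mitochondrially encoded genes, and the isoform differences under the replicate block. Another transcript length does not move the isoform differences, because length cancels. With the replicate block the median of the members was 0.18, 19 were over 0.2 and 1 had an unadjusted p under 0.05. Without a filter the log2 fold change of Cox8a was 0.012 in place of -0.0068. With copies summed, 0 members had an unadjusted p under 0.05, 1 was higher without overlap, and Atp5l was at -0.0043. Summing copies with WT 2 left out was a setting chosen after seeing the data. The median was then -0.0074, with 1 member over 0.2 and 2 under -0.2, and 1 was higher and 5 lower without overlap. An unadjusted p under 0.05 was found for 0 higher and 1 lower, beside 391 of 14966 genes (edgeR). Shares of all genes without overlap are not given for this setting. With WT 2 left out and no copies summed they were 8.31% higher and 7.22% lower. With both changes Atp5l was at -0.079, Cox4i1 at -0.0034 and Cox8a at 0.0036.

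Leaving out each library in turn, the number of members with an adjusted p under 0.05 stayed at 0 (0 to 0) in both directions, beside 122 to 1134 genes at an unadjusted p under 0.05. Members with an unadjusted p under 0.05 ranged from 1 to 1 higher and 0 to 1 lower, and members without overlap from 2 to 24 higher and 0 to 5 lower. The 24 arose without Zeb2 cKO 3, against 4 without WT 1. Members over 0.2 ranged from 2 to 29: 27 without WT 1, 2 without WT 2, 25 without WT 3, 6 without Zeb2 cKO 1, 6 without Zeb2 cKO 2 and 29 without Zeb2 cKO 3. Members under -0.2 ranged from 0 to 2, and the median from 0.0034 to 0.27. Among these fits the share of all genes is given only without WT 2. There 14.2% were over 0.2 (15.9% with all libraries). Without overlap 8.31% were higher (3.39% with all libraries) and 7.22% lower (2.97%). Whether the counts of the other fits are particular to the members was not tested. The isoform differences ranged from -0.33 to -0.0057 for Cox6a2 to Cox6a1, -0.13 to 0.081 for Cox7a1 to Cox7a2 (above 0 without WT 1, 0.066, WT 3, 0.021, or Zeb2 cKO 3, 0.081), -0.074 to 0.20 for Cox8b to Cox8a and -0.045 to 0.18 for Cox4i2 to Cox4i1. Among the members described in full, log2 fold changes that changed sign ranged from -0.041 to 0.50 for Atp5a1, -0.0035 to 0.39 for Cox4i1, -0.26 to 0.055 for Cox6a2, -0.019 to 0.32 for Cox7a1, -0.034 to 0.030 for Cox8a, -0.055 to 0.21 for Cox8b, -0.17 to 0.19 for Uqcr11 and -0.28 to 0.064 for Uqcrq. Over all 41 members, 18 changed sign without WT 2, among them also Cyc1, Uqcr10, Uqcrc1, Uqcrc2, Uqcrfs1, Cox5a, Cox5b, Cox7b, Atp5b, Atp5d, Atp5f1 and Atp5g3. The causes were not tested. Cox7c and Atp5g2 kept their sign without each library, from 0.54 to 0.75 and from 0.37 to 0.78. Atp5g2 held 62 counts in 6 libraries against a minimum of 60, more of them in Zeb2 cKO, so its upward sign was favoured by the choice of members. Of its transcript 88.2% is shared with pseudogenes at 100% identity. Whether depth or the placement of reads set its low count was not tested. The rows of Cox7c and Atp5l held 401 and 192 counts beside 6045 and 1724 on their copies, so their values depend on where reads were placed.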
